A study of Mus musculus with 2 samples.

Results

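The 10 genes described here are a set of proliferation genes, among 20140 genes measured in stroma-enriched cells of the mouse submandibular gland. They were chosen by name, with earlier results of these data known. All 10 had a row in the tables. They comprised 3 genes for proteins of mitotic chromosomes (Mki67, Top2a and Birc5), 4 for mitotic cyclins and their kinase (Cdk1, Ccna2, Ccnb1 and Ccnb2) and 3 for DNA replication (Mcm5, Pcna and Tyms). The question was which of the 12 cell clusters, besides the cycling cluster 11, carried their transcripts, and how this compared between ligated and mock-operated glands.

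The mice were female C57BL6/J animals aged 14 weeks. In the ligated group a metal clip had closed the ducts draining the submandibular and the sublingual gland for 14 days. In the mock group the ducts had been exposed without a clip, with 14 days of healing. Both groups had been depleted of cells bearing EpCAM, an epithelial surface protein, and of cells bearing Ter119, a marker of maturing red cells, and then of dead cells. Each group was 1 droplet library from 2 pooled glands, so differences below carry no test, no replicate spread stands behind them, and every value describes these 2 libraries.

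The values are levels. A level is a gene's UMIs (unique molecular identifiers, each marking 1 captured RNA molecule) per 10000 UMIs of the cell, averaged within a cluster. Cell numbers recovered from the means came to 11406 ligated and 4199 mock cells, in clusters of 59 to 3353 and of 17 to 2363 cells. Clusters were called by markers: endothelial-like (cluster 0 and, with lymphatic markers, cluster 4), natural killer-like (1), T cell-like (2), fibroblast-like (3), macrophage-like (5), mural-like (6), ductal-like (7), Schwann-like (9) and erythroid-like (10). Cluster 8 held the highest levels of 9 of 10 acinar epithelial markers, which summed to 1611 in its mock and 136 in its ligated cells. It stayed unnamed because markers of several other cell types were detected in its ligated cells. Endothelial markers summed to 3.09 in its mock and 48.9 in its ligated cells, and fibroblast markers to 0.789 and 43.1. The ductal-like and erythroid-like cells are types the depletion was meant to remove, and the ductal-like cells were shallow, with median recovered totals of 1082 (mock) and 976 (ligated) UMIs. Pooled over all clusters the median recovered totals were 6547 (mock) and 6680 (ligated) UMIs. This pool is not weighted by cell number. In the mock library, 27 totals came from the 2363 cells of cluster 0 and 99 from the 201 cells of cluster 7.

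Cells divide in an ordered cycle in which DNA is copied in S phase and the chromosomes are separated in mitosis. Genes for the replication machinery are transcribed from late G1 and are also used in DNA repair, whereas genes for mitotic proteins are transcribed mainly in S and G2 and their transcripts are scarce in resting cells. In an uninjured adult salivary gland few cells divide at any time, and immune cells that enter an injured tissue can divide there.

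Many mitotic genes share short promoter elements: CCAAT boxes, bound by NF-Y, and the cell cycle genes homology region (CHR, spelled TTTGAA or TTCGAA), bound by the DREAM and MuvB complexes, while replication genes more often carry E2F sites. RefSeq promoter sequence of GRCm38.p6, which is the mm10 build the submitters name, was found for 9 of the 10 members and not for Ccna2. The 5 stretches below show members with each element, written 5′ to 3′ in the gene's direction with matches in capitals, and limited to bases within 160 of the tabulated start that lie outside annotated exons.
Mki67, chr7:135716451-135716539, minus strand: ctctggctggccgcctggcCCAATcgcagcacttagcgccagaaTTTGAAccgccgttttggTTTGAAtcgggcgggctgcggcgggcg
Top2a, chr11:99024200-99024349, minus strand: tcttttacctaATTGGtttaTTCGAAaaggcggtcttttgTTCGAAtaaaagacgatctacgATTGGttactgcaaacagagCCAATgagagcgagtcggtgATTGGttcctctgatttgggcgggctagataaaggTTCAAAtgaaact
Cdk1, chr10:69352939-69353072, minus strand: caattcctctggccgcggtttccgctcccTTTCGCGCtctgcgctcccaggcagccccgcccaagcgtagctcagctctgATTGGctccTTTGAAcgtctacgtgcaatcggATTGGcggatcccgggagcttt
Ccnb2, chr9:70421555-70421714, minus strand: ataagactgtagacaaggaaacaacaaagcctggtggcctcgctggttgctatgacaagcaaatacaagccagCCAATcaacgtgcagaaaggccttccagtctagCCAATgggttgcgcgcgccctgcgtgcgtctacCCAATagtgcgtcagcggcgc
Mcm5, chr8:75109349-75109467, plus strand: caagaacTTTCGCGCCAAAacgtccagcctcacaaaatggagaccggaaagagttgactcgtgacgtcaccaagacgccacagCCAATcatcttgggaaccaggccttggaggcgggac
Matches were sought on both strands in the 160 bases before the tabulated start. A CHR match was present in 3 of 6 mitotic members (Mki67, Top2a and Cdk1) and in 0 of 3 replication members, beside 10.4502% of 32851 promoters of the same length. A CCAAT match was present in 5 of 6 mitotic and 2 of 3 replication members, beside 25.5822%. An E2F site, spelled TTTCCCGC, TTTCGCGC, TTTGCCGC or TTTGGCGC, was present in Cdk1 and Mcm5, beside 1.28459%, and the 2 matches of Mcm5 overlap. These matches describe letters and are not measured binding.

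Cluster 11 held the highest level of all 10 members in both libraries. It was small in both, with 22 mock cells, 0.524% of the library (exact Clopper-Pearson 95% interval 0.329 to 0.792), and 59 ligated cells, 0.517% (0.394 to 0.667). These intervals cover the counting of cells within a library only, not differences between animals. The other cell cycle genes peaked there too: of 52 other G2/M genes, 51 were highest in cluster 11 in each library, and of 43 other G1/S and replication genes, 40 were in the mock and 41 in the ligated library. These counts describe the cluster and are no test of it, since its cells were grouped on such genes.

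**Figure D1:**
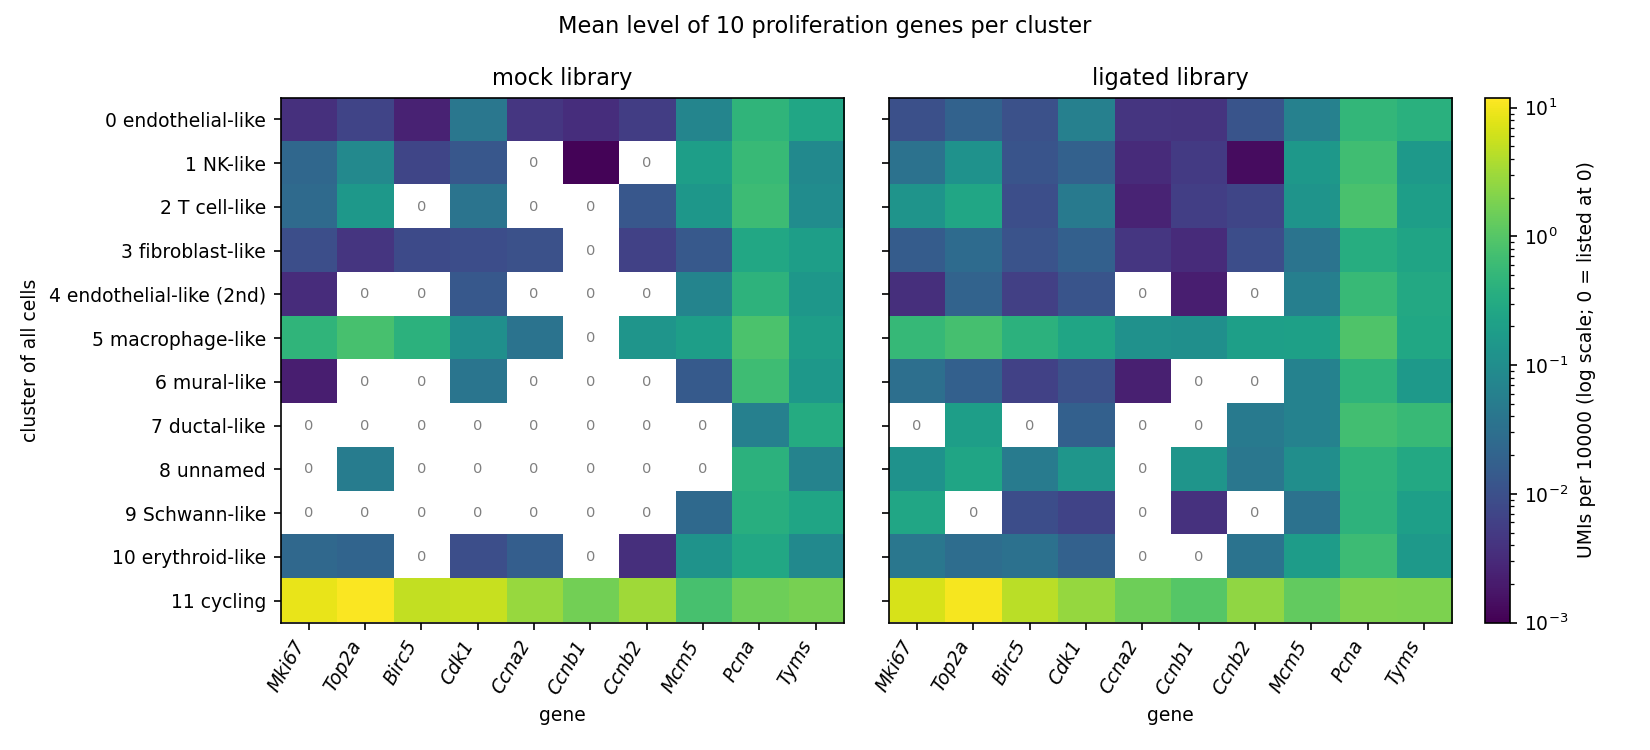
Level of each of the 10 genes (columns) in each of the 12 clusters (rows) of the mock and ligated libraries, in UMIs per 10000 on a log colour scale, with a grey 0 where the gene is listed at 0. Cluster 11 is brightest for every gene, cluster 5 carries the mitotic genes at an intermediate level, and Pcna, Mcm5 and Tyms are spread over the clusters.

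Genes for chromosome proteins stood slightly lower in cluster 11 of the ligated library. Top2a, a topoisomerase that untangles replicated DNA, had a level of 11.4 in the mock and 10.7 in the ligated library. Mki67, which coats mitotic chromosomes, had a level of 8.75 and 6.88. Birc5 encodes survivin, a subunit of the chromosomal passenger complex, and stood at 5.12 and 4.53. The gap was larger in proportion for Cdk1, Ccna2 and Ccnb1.

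Cdk1, the kinase that drives entry into mitosis, had a level of 5.44 in the mock and 2.71 in the ligated library. Ccna2 encodes cyclin A2 of S and G2 phase and stood at 2.84 and 1.52. Ccnb1 and Ccnb2 encode the B cyclins that activate Cdk1 in mitosis. Ccnb1 had a level of 1.64 and 0.993, and Ccnb2 of 3.13 and 2.51. All 7 mitotic members were thus lower in the ligated library, with a summed level of 38.3 against 29.8 (0.779-fold, approximate 95% counting interval 0.724 to 0.839).

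The 3 replication members went the other way in cluster 11. Mcm5, a subunit of the replicative helicase, had a level of 0.771 in the mock and 1.23 in the ligated library. Pcna, the sliding clamp of DNA polymerase, stood at 1.53 and 1.94, and Tyms, which makes thymidylate for DNA, at 1.73 and 1.90. Their summed level was 4.03 and 5.08 (1.26-fold, 1.02 to 1.57). Counting intervals here and below use approximate UMI numbers and cover counting error only, not the choice of 22 and 59 cells or of animals.

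The cells of cluster 11 also differed in their cell type markers between the libraries. The summed level of 10 endothelial markers was 64.5 in the mock and 9.59 in the ligated library. Neutrophil markers summed to 36.3 in the mock library, almost all of it S100a8 (16.2) and S100a9 (20.0), and to 0.0051 in the ligated library, where both were listed at 0. Each mock neutrophil value above 0 is a whole multiple of 1 UMI in a cell of 30880 UMIs, the highest recovered total there. The mock neutrophil sum may thus rest on 1 cell. The 9 T cell markers were higher in the ligated library, at 3.76 and 23.6, as were the 8 natural killer markers at 4.58 and 11.5. The 11 macrophage and monocyte markers summed to 1.83 and 6.81, mostly through the monocyte gene Ly6c2 (0.0238 and 4.44). Without Ly6c2 they summed to 1.81 and 2.38, with 6 of 10 higher and 3 lower (Cd68, C1qc and Lyz2) in the ligated library and Mrc1 listed at 0. Ductal markers summed to 1.21 and 18.5, of which the kallikrein Klk1, a secreted product of granular ducts, made up 0.0873 and 17.5. Among cell cycle regulators, Ccnd1 (cyclin D1, which acts in G1) stood at 6.13 in the mock and 0.393 in the ligated cells of cluster 11, and Cdkn1a (the inhibitor p21) at 4.00 and 0.380. The part of this difference in cell types in the lower mitotic levels was not tested.

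**Figure D2:**
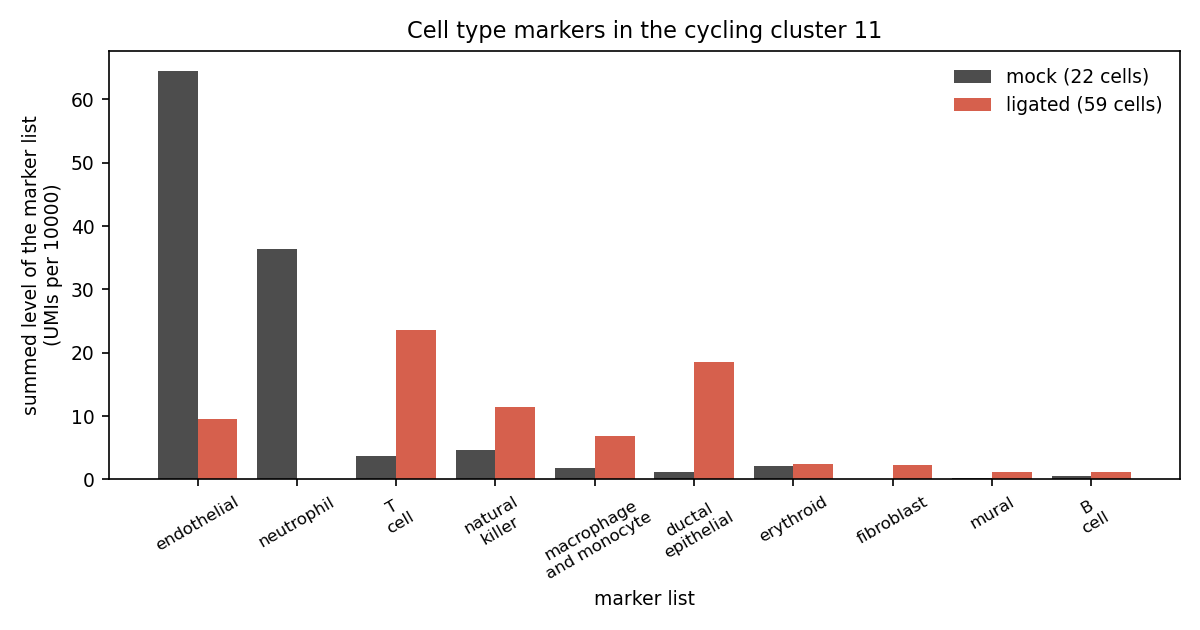
Summed level of 10 of the 16 marker lists in cluster 11, in UMIs per 10000, for 22 mock cells (grey) and 59 ligated cells (red), 1 library each. Endothelial and neutrophil markers are higher in the mock library, and T cell and natural killer markers are higher in the ligated library. The mock neutrophil bar may rest on 1 cell. Klk1 (17.5) makes up most of the ligated ductal bar, and Ly6c2 (4.44) most of the ligated macrophage and monocyte bar.

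More of the mitotic expression lay outside cluster 11 in the ligated library. Each member's summed expression is its level times the cells of the cluster, added over the library. The median share of a mitotic member's summed expression lying outside cluster 11 was 28.06% in the mock and 67.16% in the ligated library. Over all 10 members the medians were 33.56% and 71.24%. For all 7 mitotic members the ligated share was the higher, from Ccna2 (20.9% and 55.5%) to Cdk1 (52.6% and 77.5%), and for Ccnb1 the shares were 19.7% and 72.0%. With the ligated levels weighted by the mock library's cell numbers, the median over 10 members was 54.96%. With every cluster given the same number of cells it was 6.984% in the mock and 16.36% in the ligated library.

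The macrophage-like cluster 5 held the largest of these shares in the ligated library. Of the summed expression of the 7 mitotic members, cluster 11 held 64.8% in the mock and 31.8% in the ligated library. Cluster 5 held 11.5% and 29.4%, while it made up 1.83% and 5.96% of the cells. The natural killer-like cluster 1 held 6.60% and 11.8%, the T cell-like cluster 2 held 2.67% and 11.6%, and the endothelial-like cluster 0 held 12.4% and 6.36%. Without cluster 5, the median share outside cluster 11 over the 7 mitotic members was 19.49% and 52.94%.

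**Figure D3:**
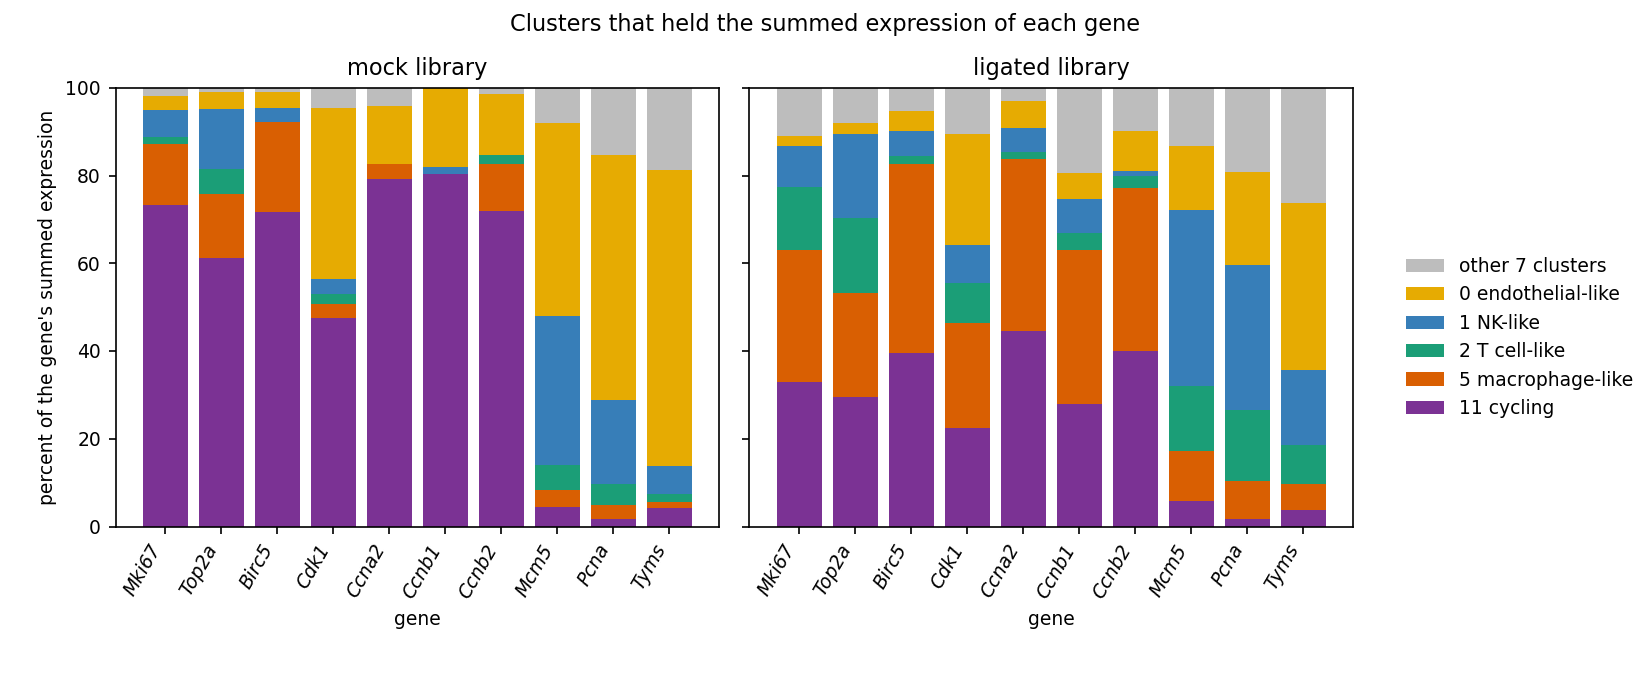
Percent of each gene's summed expression held by 5 clusters and by the other 7 together, in the mock (left) and ligated (right) library. Cluster 11 (purple) holds 47.4% to 80.3% of each mitotic gene in the mock and 22.5% to 44.5% in the ligated library, while Mcm5, Pcna and Tyms lie almost wholly outside it in both.

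The 3 replication members lay mostly outside cluster 11 in either library. The share outside was 95.6% in the mock and 94.2% in the ligated library for Mcm5, 98.3% and 98.4% for Pcna, and 95.9% and 96.3% for Tyms. Their largest holders followed the largest clusters: cluster 0 held 57.7% of their summed expression in the mock library, and cluster 1 held 29.5% and cluster 0 25.0% in the ligated library. Counts of Pcna are uncertain because the pseudogene Pcna-ps2 has a row of its own in the tables. Ccna2 overlaps exons of Exosc9 on the opposite strand and Top2a contains a small nucleolar RNA gene; whether counting used strand is not given in the sources used here.

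In the macrophage-like cluster 5, levels of the mitotic members were second only to those of cluster 11 for 6 of 7 members in each library. The exception in the mock library was Ccnb1, listed at 0 in cluster 5 and next highest in cluster 0, and in the ligated library again Ccnb1, next highest in cluster 8 at 0.132, a value of about 4 UMIs. In cluster 5, Top2a had a level of 0.773 in 77 mock cells and 0.742 in 680 ligated cells. Mki67 stood at 0.473 and 0.549, and Birc5 at 0.421 and 0.425. These 3 chromosome genes were at close levels in both libraries.

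The cyclins and kinase of cluster 5 were higher in the ligated library. Cdk1 had a level of 0.106 in the mock and 0.248 in the ligated library, Ccna2 of 0.0356 and 0.116, and Ccnb2 of 0.132 and 0.202. Ccnb1 was listed at 0 in the mock library, where 3 UMIs would give about 0.0349. In the ligated library it stood at 0.107, which is 3.08-fold the level of 3 mock UMIs. The mock values rest on few molecules, about 9 UMIs for Cdk1 and 3 for Ccna2. The summed level of the 7 mitotic members in cluster 5 was 1.94 and 2.39 (1.23-fold, 1.05 to 1.45). Of the replication members, Pcna stood at 0.840 and 0.904, Mcm5 at 0.196 and 0.209, and Tyms at 0.184 and 0.269.

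The mitotic members stood in a narrow range of proportions to cluster 11 in the ligated cells of cluster 5. Each stood at 6.95% (Top2a) to 10.8% (Ccnb1) of its own cluster 11 level, with a median of 8.04%. In the mock library the range was 0 (Ccnb1) to 8.24% (Birc5), with a median of 4.23%. In the ligated library the same 7 genes ranged from 0.168% to 2.47% in cluster 2, from 0.0544% to 1.14% in cluster 1 and from 0.145% to 2.23% in cluster 0, and were more uneven there. Markers of other cell types in cluster 5 stood at a median of 20.5% of their library mean in the ligated library (quartiles 13.1% and 38.8%) and 10.1% in the mock library. The 7 mitotic members stood at 396% to 720% of theirs in the ligated library and, over a wider range, at 0 (Ccnb1) to 1126% (Birc5) in the mock library. Cluster 5 also held the highest levels of 6 of 6 B cell and 6 of 7 dendritic cell markers, whose summed levels were 5.94 and 2.65 in the mock and 4.80 and 1.99 in the ligated library, beside 180 and 218 for macrophage and monocyte markers. Which of these cells carried the mitotic transcripts cannot be told apart in cluster means.

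**Figure D4:**
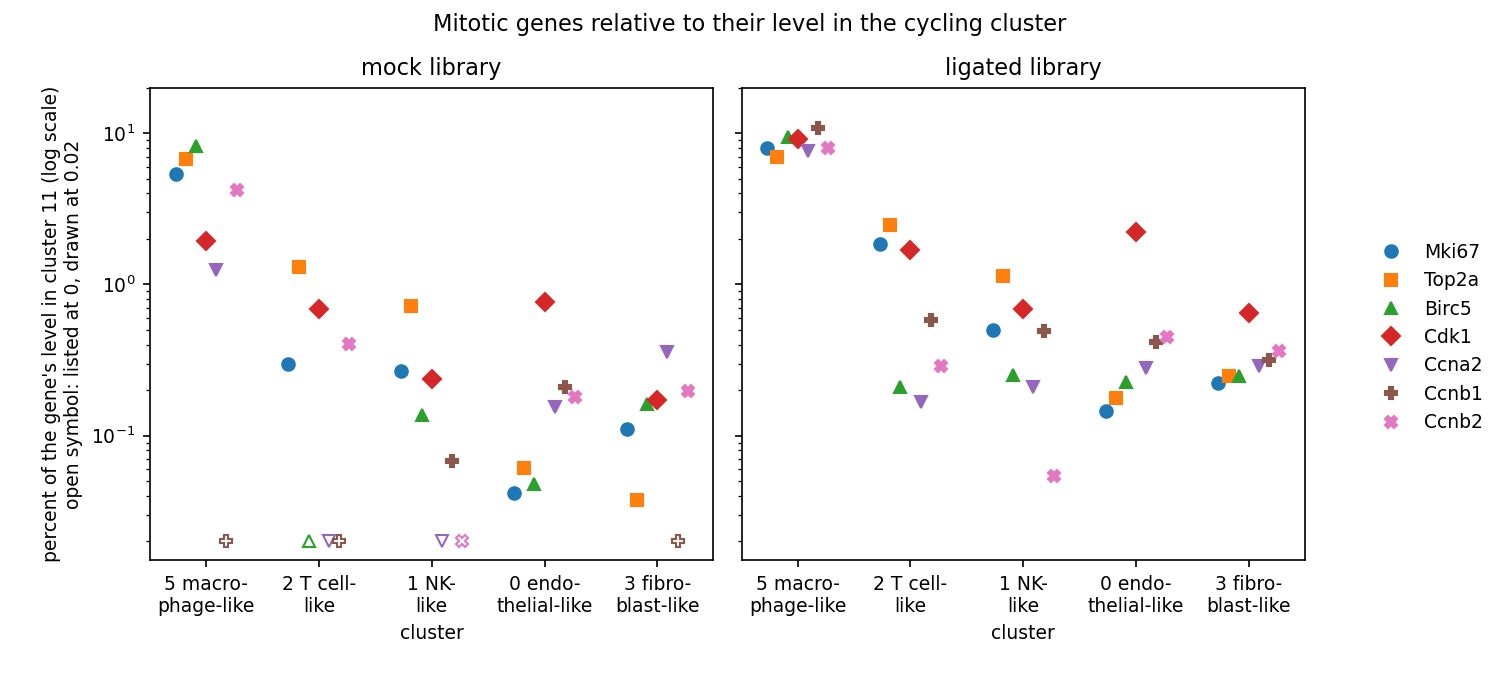
Level of each of the 7 mitotic genes in clusters 5, 2, 1, 0 and 3, as a percent of the gene's own level in cluster 11 of the same library (log axis; open symbols at 0.02 are listed at 0). In the ligated library the 7 genes lie between 6.95% and 10.8% in cluster 5 and spread over a wider range in the other clusters.

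In the T cell-like cluster 2, the summed mitotic level was 0.224 in the mock (155 cells) and 0.462 in the ligated library (1393 cells), 2.06-fold higher (1.34 to 3.32). Top2a and Mki67 made up most of it. Top2a had a level of 0.148 and 0.264, and Mki67 of 0.0262 and 0.127, the mock value of Mki67 resting on about 3 UMIs. Birc5, Ccna2 and Ccnb1 were listed at 0 in the mock library and stood at 0.0095, 0.0026 and 0.0058 in the ligated library, each below the level 3 UMIs would give among the mock cells. The ligated value of Ccna2 equals 1 UMI in each of 2 cells. In the ligated library Top2a and Mki67 stood at 141% and 117% of their library means and Cdk1 at 74.2%. The other 4 members ranged from 14.5% (Ccna2) to 31.4% (Ccnb1), beside a median of 8.95% and an upper quartile of 13.5% for markers of other cell types. The highest of these markers stood at 709%, above every mitotic member.

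In the natural killer-like cluster 1, the summed mitotic level was 0.126 in the mock (679 cells) and 0.196 in the ligated library (3353 cells), 1.55-fold higher (1.20 to 2.02). Top2a again led, with a level of 0.0821 and 0.122, followed by Mki67 with 0.0233 and 0.0344. Ccna2 and Ccnb2 were listed at 0 in the mock library and stood at 0.0032 and 0.0014 in the ligated library. In the ligated library the 7 members stood between 4.21% (Ccnb2) and 65.0% (Top2a) of their library means, with a median of 26.8%, beside a median of 7.72% for markers of other cell types. The highest of these markers stood at 248%, above every mitotic member. As a percent of its cluster 11 level, Top2a was the highest of the 7 genes in the ligated cells of both cluster 1 and cluster 2 and the lowest in those of cluster 5.

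In the endothelial-like cluster 0, Cdk1 was the mitotic member that stood apart. Its level was 0.0417 in 2363 mock cells and 0.0605 in 2948 ligated cells, or 69.3% and 97.2% of its library mean. The other 6 mitotic members were at 5.84% to 32.0% of theirs in the mock and 9.19% to 35.0% in the ligated library, where markers of other cell types had medians of 4.14% and 9.80%. The highest of these markers stood at 106% in the mock and 95.8% in the ligated library. Mki67 had a level of 0.00365 and 0.00996 there and Top2a of 0.0070 and 0.0190. Tyms had a level of 0.264 and 0.391 in cluster 0, above its levels in clusters 1, 2 and 5 of the same library. Its summed mitotic level was 0.0681 and 0.119 (1.75-fold, 1.43 to 2.16).

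The remaining clusters rest on few mitotic transcripts per library, except the ligated cells of cluster 3. The fibroblast-like cluster 3 had a summed mitotic level of 0.0479 in the mock and 0.0872 in the ligated library, from about 12 and 143 UMIs (1.82-fold, 1.01 to 3.61). The mural-like cluster 6 stood at 0.0401 and 0.0667 and cluster 4 at 0.0164 and 0.0434, and both rest on fewer than 15 UMIs in each library. The ductal-like cluster 7 had 0 of 7 mitotic members above 0 in the mock and 3 of 7 in the ligated library. There, Top2a was at 0.194 (about 5 UMIs, against a level of 0.138 that 3 UMIs would give in the mock cells), and Ccnb2 came from 1 cell. The unnamed cluster 8 had a summed mitotic level of 0.0519 in 25 mock cells and 0.730 in 264 ligated cells, from about 1 and 20 UMIs (14.0-fold, 2.25 to 582). It held 3.48% of the ligated library's mitotic expression. Its ligated cells were shallow, with a median recovered total of 1042 UMIs, beside 5440 in its mock cells. The Schwann-like cluster 9 had Mki67 at 0.256 in 271 ligated cells, with Top2a listed at 0. This Mki67 value is about 27 UMIs at the median recovered total of 3827. Recovered totals there ran from 581 to 18076, so fewer UMIs in shallow cells could give the same level. The 17 mock cells of cluster 9 had no mitotic transcript, and 3 UMIs among them would give about 0.378. Several other low values equal 1 UMI in 1 or 2 ligated cells: Ccna2 in cluster 6, Ccnb1 in clusters 4 and 9, Cdk1 in clusters 7 and 9, Birc5 in clusters 8 and 9, and Ccnb2 in cluster 8.

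By summed mitotic level, the ligated order was cluster 11 (29.8), 5 (2.39), 8 (0.730), 2 (0.462), 9 (0.276), 7 (0.257), 1 (0.196), 10 (0.159), 0 (0.119), 3 (0.0872), 6 (0.0667) and 4 (0.0434). Only clusters 11 and 5, 5 and 8, 2 and 9, and 0 and 3 were neighbours whose approximate counting intervals did not overlap. In the mock library clusters 11 (38.3) and 5 (1.94) led and stood clear of each other and of cluster 2 (0.224), and from there downward every pair of neighbours overlapped. For the replication members the ligated levels were closer together, from 0.621 in cluster 3 to 1.38 in cluster 5, below 5.08 in cluster 11.

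Compared between libraries, few member levels outside cluster 11 differed in size. The 9 clusters where both libraries had 50 cells or more were compared. A pair of a gene and a cluster counted as different where its higher level reached 0.5 and its log2((ligated + 0.1)/(mock + 0.1)) reached 1 or -1. Of 90 pairs, 10 reached the minimum level, only 2 of them mitotic (Mki67 and Top2a in cluster 5). Of these 10, 1 was higher in the ligated library and 0 were lower. The higher one was Pcna in the ductal-like cluster 7, at 0.0601 in the mock and 0.708 in the ligated library (log2 difference 2.33). It rests on about 1 mock and 19 ligated UMIs, and the ratio of the levels was 11.8 with an approximate counting interval of 1.87 to 489. Among all genes that reached the minimum, 24.9% differed in cluster 7, where the cells were shallow, and 23.6% in cluster 10. In clusters 0 to 6, in that order, the background was 4.26%, 2.12%, 3.01%, 7.92%, 3.97%, 6.51% and 7.39%.

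Small differences mostly pointed to the ligated library. The ligated level was the higher in 69 of the 81 pairs with a value above 0, beside 57.9% of such pairs over all genes and 59.9% over genes below the minimum level. The markers of other cell types also stood higher in the ligated library, relative to the library mean, in each of the 11 clusters where they were computed (for example 9.80% against 4.14% in cluster 0 and 7.72% against 2.08% in cluster 1), and their part in these small differences was not tested. Mock clusters held fewer cells, except cluster 10 with 85 mock and 60 ligated cells. Over all 12 clusters, 28 pairs were listed at 0 in the mock library only. In 3 of these pairs the ligated level exceeded what 3 UMIs would give among the mock cells. The summed level of all 10 members was higher in the ligated library in 8 of the 9 compared clusters, from 1.19-fold in cluster 5 to 4.16-fold in cluster 7 (1.93 to 10.2), and was 0.868-fold in the mural-like cluster 6 (0.665 to 1.14). Without Pcna, which stood at 0.645 in the mock and 0.448 in the ligated cells of cluster 6, the log2 difference there was 0.354 in place of -0.181.

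**Figure D5:**
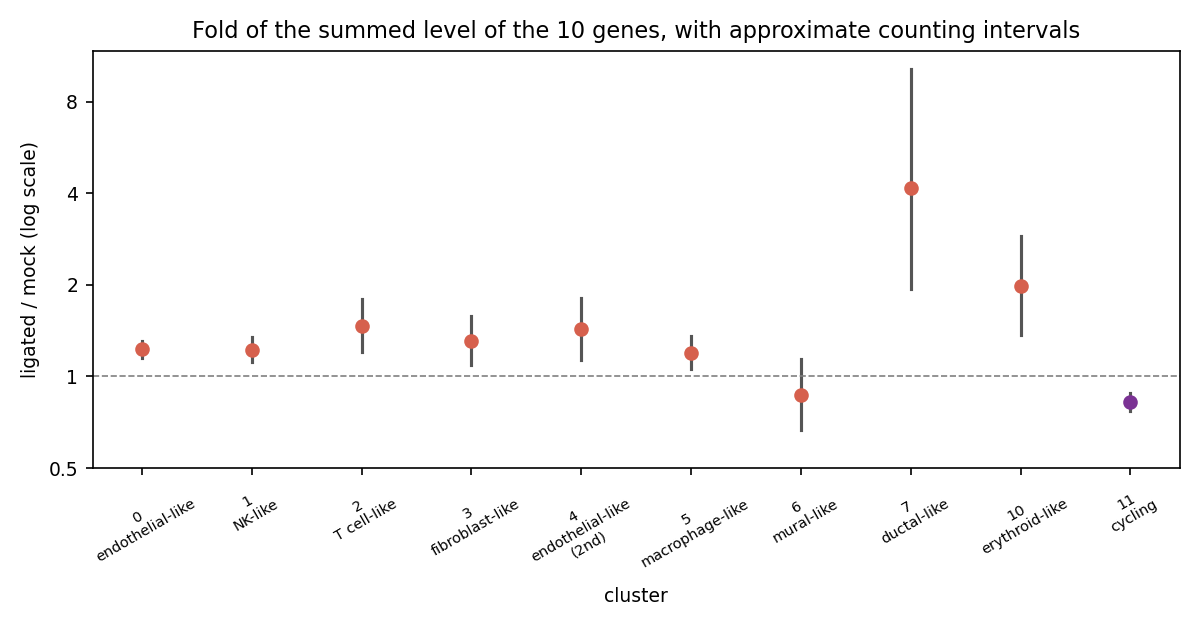
Ligated over mock fold of the summed level of the 10 genes in the 9 compared clusters and in cluster 11 (log axis), with approximate 95% counting intervals and a dashed line at 1. The fold is above 1 in 8 compared clusters, with the widest interval in the shallow cluster 7, and below 1 in clusters 6 and 11.

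Library means, which mix levels with cell numbers, differed less evenly. Top2a had a library mean of 0.0973 in the mock and 0.187 in the ligated library (1.92-fold), and Mki67 of 0.0625 and 0.108 (1.74-fold). Ccnb1 was at 1.71-fold, Birc5 at 1.58-fold and Ccnb2 at 1.42-fold, while Cdk1 (1.03-fold) and Ccna2 (0.943-fold) were near 1. The replication members were at 1.18-fold (Mcm5) to 1.29-fold (Pcna). With the ligated levels weighted by the mock cell numbers, Top2a was at 1.27-fold, Mki67 at 1.07-fold, Ccna2 at 0.715-fold and Mcm5 at 0.957-fold, while Tyms was at 1.52-fold in place of 1.21-fold. The different cell numbers of the libraries therefore enter these means.

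Other G2/M genes also had a larger share in cluster 5 of the ligated library. Over 52 other G2/M genes, the median share of summed expression in cluster 5 was 4.201% in the mock and 21.6% in the ligated library, and in cluster 11 it was 41.4% and 19.5%. The larger share in cluster 5 was not particular to this list, as cluster 5 made up 1.83% and 5.96% of the cells. There the medians were 2.61% and 9.64% over other G1/S and replication genes. They were 1.41% and 4.47% over G1 cyclins and kinases, and 1.77% and 5.45% over inhibitors and quiescence genes. Ube2c, the ubiquitin-conjugating enzyme of the anaphase-promoting complex, had 7.20% and 36.1% of its expression in cluster 5, with a level of 0.213 and 0.403. Stmn1, a microtubule-destabilizing protein, had 7.26% and 23.5% there, with a level of 2.60 and 2.42. Hmgb2, a chromatin protein, and Tubb4b, a tubulin, were broader, with 42.1% of ligated Hmgb2 in cluster 1 and 46.1% of ligated Tubb4b in cluster 0.

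Among 43 other G1/S and replication genes, the median share in cluster 11 was 3.97% in the mock and 4.27% in the ligated library. Pclaf, a partner of PCNA, was the exception among the 4 with the highest cluster 11 level, with 54.3% and 44.8% in cluster 11 and 18.2% and 32.3% in cluster 5. Dut (which keeps dUTP out of DNA), Mcm7 (a helicase subunit) and Slbp (the histone mRNA binding protein) had at most 5.05% of their expression in cluster 11 in either library. By the size rule, Dut and Gmnn were lower and no gene of this list higher in the ligated cells of cluster 7, and Dut was higher in cluster 10. Of the G2/M list, Stmn1 was higher and Cks2 and Anp32e lower in cluster 7, Hmgb2 and Lbr were higher in cluster 10, and Tubb4b was lower in cluster 6 (4.76 and 2.17). In clusters 0 to 5, 0 genes of either list passed. Per cluster, only 0 to 7 genes of the G1/S list and 4 to 7 of the G2/M list reached the minimum level there. Of all genes at the minimum, 2.12% (cluster 1) to 7.92% (cluster 3) passed in these clusters. In clusters 7 and 10, 3 G1/S and 5 G2/M genes reached it in each, and 24.9% and 23.6% of all genes passed. In cluster 6, 4 G2/M genes reached it, and 7.39% of all genes passed.

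Of the regulators of G1, Ccnd1 and Cdkn1a were lower in the ligated library in the vascular clusters. Ccnd1 had a level of 4.45 in the mock and 1.75 in the ligated library in cluster 0, of 2.99 and 0.715 in cluster 4, and of 2.48 and 1.14 in cluster 6. It was the 1 of 8 G1 cyclins and kinases lower by the size rule in each of these clusters. Cdkn1a, of 15 inhibitors and quiescence genes, had a level of 4.36 and 0.844 in cluster 0, 4.00 and 0.972 in cluster 4, and 1.83 and 0.385 in cluster 6, and was also lower in clusters 3 (0.731 and 0.257) and 10 (2.17 and 0.547). In cluster 6, the antiproliferative gene Btg2 (0.890 and 2.00) and the stress gene Gadd45b (0.242 and 0.681) were higher. In clusters 1, 2 and 5, 0 genes of either list passed. Elsewhere Ccng1 was lower and Gadd45g higher in cluster 7, and Ccnd3, Cdk4, Btg1 and Btg2 were higher in cluster 10.

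The genes whose pattern was most like the mean log2 level of the 10 members, over 24 values (12 clusters in 2 libraries), were Cdca8 (Pearson's r = 0.991), Cenpe, Knl1, Plk1 and Rad51ap1 (0.985). Cdca8 is a chromosomal passenger subunit, Cenpe and Knl1 are kinetochore proteins, Plk1 is a mitotic kinase and Rad51ap1 acts in DNA repair. Over the 22 values without cluster 11 they were Gins2 (0.953), a replication factor, Hist1h1b, a linker histone, Ms4a6d, H2-Oa and Man2b1 (0.915). These correlations describe clusters that share a library and are no test.

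A separate clustering of cells named after Pdgfra, Pdgfrb and Gli1, genes used to mark fibroblasts and mural cells, was also deposited. Its cluster 1, with 14 mock and 435 ligated cells, held 71.8% and 75.5% of the subset's mitotic expression, at a summed level of 3.49 and 0.631. Every mock mitotic value above 0 there is a whole multiple of that of Cdk1 (0.0521), as the transcripts of 1 cell would be. The mock level and share of this cluster may thus rest on 1 cell. The subset's largest cluster 0, with 167 and 949 cells, had a summed mitotic level of 0.0491 and 0.0516. The subset's cells are among those described above and are no further replicate.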

How the data were processed

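Droplet single-cell RNA libraries were compared, 1 ligated and 1 mock, each from 2 glands. Per the submitters' processing notes, Cell Ranger 6.0.1, Seurat and the mm10 build were used. The filters on cells, the treatment of doublets and the use of strand are not given in the sources used here, and the tables hold no cell barcodes. The authors deposited mean levels per cluster, for both libraries together and split by library. The deposited values are of another unit than counts or CPM: linear means of UMIs per 10000, with every column summing to 10000. No count model was therefore fitted.

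From these tables cell numbers were recovered, as the whole numbers whose ratio weights the split means into the joint mean within 2e-09. UMI totals of single cells came from genes seen in 1 cell, which favours deep cells. Approximate UMI numbers are the summed level times the median recovered total, and their 95% intervals cover counting error only. For 21 genes the split files gave a date as the name, and the name was restored by order. No column was left without a sample (0). The recovery and the size rule were tested on simulated data. Python 3.11.15, pandas 2.3.3, numpy 2.4.6, scipy 1.17.1 and matplotlib 3.10.9 were used.

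The 10 members, the gene lists, the 16 marker lists and the size rule were chosen with earlier results of these data known. Which marker lists count as a cluster's own was decided on seeing the markers. Named besides the members are up to 4 genes per list with the highest cluster 11 level, genes past the size rule where 4 or fewer are, and the 5 most like genes. Alternatives covered the pseudocount, the minimum level, the size, the clusters counted, the cell weights, the members summed, and subtraction of the library mean profile at the median share of markers of other cell types.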

Additional observations from a re-analysis of the deposited data

How the results depend on the processing

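The count of 1 member and cluster pair higher in the ligated library became 2 with a pseudocount of 0.01, 0 with a pseudocount of 1 or a minimum of 2, and 3 with no minimum, with a minimum of 0.1 or with a size of 1.5 times. The count of pairs lower was 0 under each of these. The median share outside cluster 11 was 33.56% in the mock and 71.24% in the ligated library. It was 6.984% and 16.36% with equal cells per cluster, 28.06% and 67.16% without Pcna, Mcm5 and Tyms, 24.01% and 59.15% without cluster 5, and 19.49% and 52.94% for the 7 mitotic members without cluster 5. The ligated share was 68.33% with the library profile subtracted, 67.95% without clusters 8 and 10, and 54.96% at the mock cell mix. The settings without cluster 5 and at the mock cell mix were chosen after seeing the data. The ligated share exceeded the mock share under each of these settings.

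The log2 difference of the 10-member sum in cluster 0 (0.266) was 0.145 with a pseudocount of 1, 0.384 without Pcna, Mcm5 and Tyms, 0.416 without Pcna and 0.147 with the profile subtracted. With a pseudocount of 1, cluster 1 gave 0.151 in place of 0.268, cluster 7 gave 0.907 in place of 1.81 and cluster 10 gave 0.438 in place of 0.876. In cluster 6 (-0.181) it was 0.251 without Pcna, Mcm5 and Tyms, 0.354 without Pcna and -0.676 with the profile subtracted, so its sign rests on Pcna. No paired analysis was possible because each group has 1 library. With 1 library a group no replicate could be left out, and differences between animals cannot be told apart from differences between conditions. Median recovered totals per cell, pooled over all clusters, were close in both libraries. That pool is not weighted by cell number, so it does not measure the depth of a library. Within clusters they could differ, with 5440 (mock) and 1042 (ligated) UMIs in cluster 8 and 6528 and 4987 in cluster 6. Few cells limit the mock clusters, where 3 UMIs correspond to a level of 0.0349 in cluster 5, 0.138 in cluster 7, 0.221 in cluster 8 and 0.378 in cluster 9.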
